A study of Mus musculus with 8 samples.

Results

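The genes described here are 31 genes whose products run amino acid and sugar metabolism inside liver cells, together with a few other abundant liver proteins. They were measured in the pancreas of non-obese diabetic (NOD) mice, which develop autoimmune diabetes, against the congenic strain NOD.B10 (NOD.B10Sn-H2b/J), which carries another H2 haplotype and is not diabetes-prone. The members were chosen by name with values of these arrays in view, and the red and green signals, their flags and their ratios are therefore given as a description. The calls of members come from a test run over all probes and describe the members, without being independent evidence about them. Of the 31 genes, 30 had at least one probe among the 21597 gene symbols on the array, with 41 probes in all. *Pck1* was not analysed here.

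Pancreas RNA of 8 female NOD mice, 12 weeks old, was labeled red (Cy5), one mouse per array, and 1 pool of RNA from 8 age-matched NOD.B10 mice was labeled green (Cy3) on each of the 8 arrays. The labels name no treatment for either strain. NOD was red on every array, and strain and dye cannot be told apart at a single probe. The pool is 1 RNA sample, so the spread between NOD.B10 mice was not measured, and each spread given below is between NOD mice and their arrays. Mice 1 to 4 were on slide 1 and mice 5 to 8 on slide 2, where red spots were noisier (the median coefficient of variation of an array was 38.2% to 63.5%, against 16.1% to 24.8% for slide 1), and the grid was not rated good by the software on 3 of the arrays of slide 2.

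Liver cells break down amino acids to carbon skeletons and ammonia, and the urea cycle turns that ammonia into urea. The carbon skeletons feed gluconeogenesis, the making of glucose for the blood, while glucokinase and glycogen synthase store sugar after a meal. Methionine is activated to S-adenosylmethionine, the methyl donor of the cell, and the methyl groups are handled by a small set of enzymes that are abundant in liver. Most of these enzymes are very abundant in hepatocytes, and several are also made in kidney, small intestine or the pancreas itself.

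Values are log2 ratios of NOD over the pool, where -1 means that the NOD signal was 50% of that of the pool. Where a gene has several probes, the brightest one past the signal filter was used. A signal is called well above background by a flag of the authors' software. In place of a signal too weak to tell from background, the software wrote a stand-in value taken from the background, so that a ratio made with one is a statement about the background and not about the size of a difference. An exact 0 was written in place of a ratio and is not a reading of equal signal. Of the 240 member values (30 genes on 8 arrays), 91 had a stand-in value in red only, and 70 of these ratios were below 0, 21 were exactly 0 and 0 were above 0. Red exceeded green in all 21 of these zeros, and in the 4 member values, all 0, with a stand-in in both dyes. A stand-in in green only gave 2 ratios, both above 0. Over all probes, 167 of 78241 ratios with a stand-in in red only were above 0. Of the 143 member values with a measured signal in both dyes, 74 were below 0 and 69 above. To be called lower or higher, a gene needed an adjusted p below 0.01 in limma's moderated test, run on all 28105 probes past the signal filter, together with a mean change of 2-fold or more.

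By the brightest probe, 7 of the 30 genes met the call as lower in NOD and 0 as higher, where 1.29% of all 18505 genes tested were called lower and 0.389% higher. Because the member ratios were known when the genes were chosen, nothing is read from this difference. The median log2 ratio of the 30 genes was -0.15, and that of all genes tested was -0.08. The 7 lower genes were *Fabp1*, *Es1*, *Akr1c6*, *Hpd*, *Agxt*, *Bhmt* and *Dpys*. In all 7, red was well above background on 0 of 8 arrays and green on 8 of 8. The 13 members whose red signal was well above background on at least 4 arrays had a median log2 ratio of 0.03, and 0 of them were called (0 lower and 2 higher at an unadjusted p under 0.05 in limma). Of all 18505 genes, 25% were lower and 10.8% higher at that unadjusted p, and each such count given for a list stands beside these shares. The choice of the 13 members uses the NOD signal itself, so that a gene much lower in NOD drops out of it, and nothing is read from it. Without mouse 3, and likewise without mouse 4, the count of lower members was 4 (*Hpd*, *Fabp1*, *Es1* and *Akr1c6*), and leaving out any other mouse gave 5 or 6, among them *G6pc* without mouse 2. Bulk RNA does not tell fewer cells of a type from less RNA per cell.

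**Figure D1:**
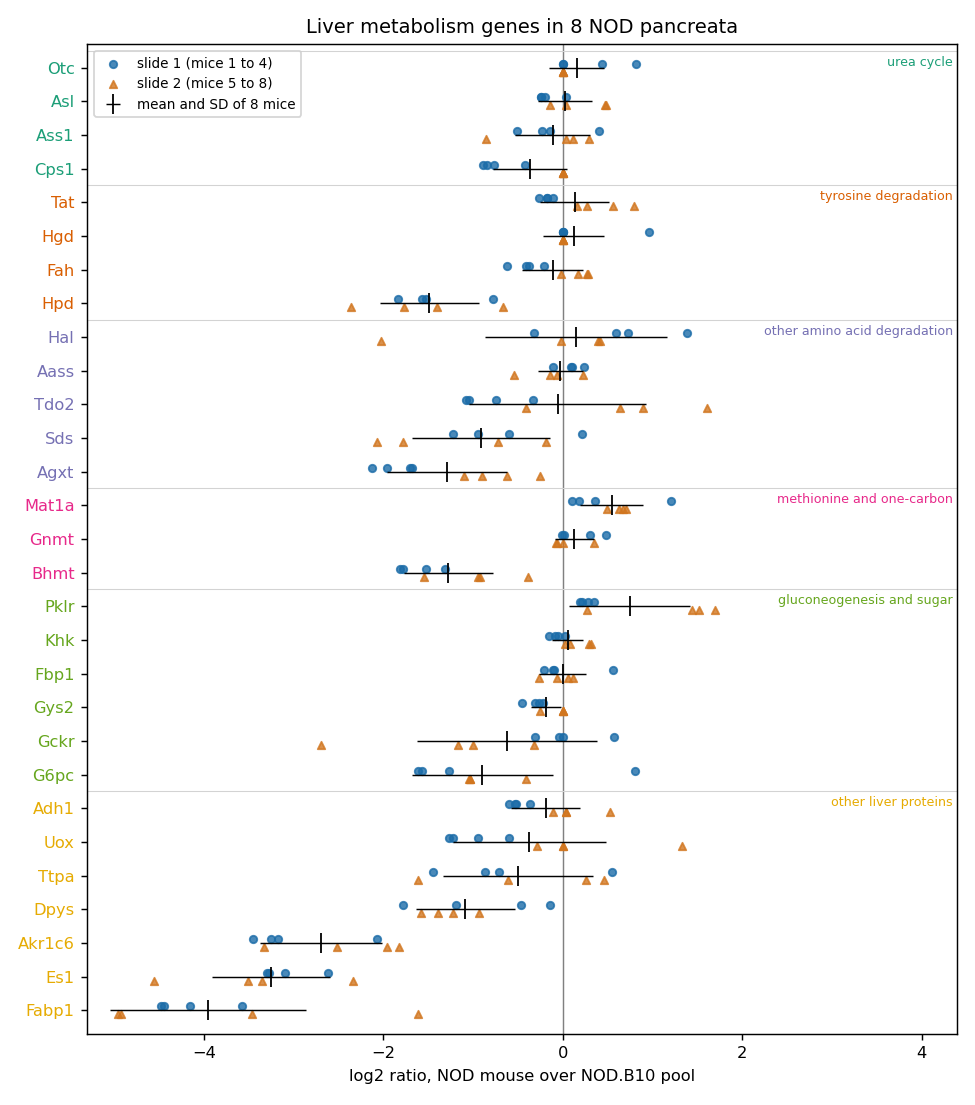
Log2 ratio of NOD over the NOD.B10 pool for 29 genes (rows, grouped by role), 1 point per mouse, circles for slide 1 and triangles for slide 2. Black ticks and lines are the mean and SD of 8 mice. *Fabp1*, *Es1* and *Akr1c6* lie at or below -1.61 in every mouse, while *Gnmt*, *Khk*, *Aass* and *Fbp1* lie around 0.

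The promoters of the 3 lowest genes and of *Gnmt*, the member with the brightest probe in the pool, are shown as those of the genes with the lowest ratios and of a member measured well in both dyes. The sequences are the 250 bases before the transcription start in RefSeq (GRCm38.p6), 5′ to 3′ on the strand of the gene. Capitals mark matches on either strand to GTTAAT (part of the HNF1 site), TTGCNNAA (C/EBP) or TATAAA (the TATA box). *Es1* is listed in RefSeq under its newer symbol, *Ces1c*.
Fabp1 (chr6:71199629-71199878, plus strand): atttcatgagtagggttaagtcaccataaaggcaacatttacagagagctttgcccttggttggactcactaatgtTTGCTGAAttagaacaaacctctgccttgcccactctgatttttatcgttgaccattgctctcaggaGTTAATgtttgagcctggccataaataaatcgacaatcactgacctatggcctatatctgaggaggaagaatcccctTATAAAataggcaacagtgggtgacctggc
Es1 (chr8:93131284-93131533, minus strand): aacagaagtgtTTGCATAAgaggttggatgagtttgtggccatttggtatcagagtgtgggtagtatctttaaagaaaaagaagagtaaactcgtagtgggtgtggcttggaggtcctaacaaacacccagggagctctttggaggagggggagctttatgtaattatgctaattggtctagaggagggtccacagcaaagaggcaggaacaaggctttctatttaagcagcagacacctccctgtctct
Akr1c6 (chr13:4434093-4434342, plus strand): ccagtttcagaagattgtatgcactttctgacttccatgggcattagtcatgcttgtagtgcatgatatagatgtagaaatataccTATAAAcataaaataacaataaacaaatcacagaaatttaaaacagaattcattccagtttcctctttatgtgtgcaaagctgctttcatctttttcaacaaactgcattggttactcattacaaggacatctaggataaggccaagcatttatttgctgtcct
Gnmt (chr17:46729166-46729415, minus strand): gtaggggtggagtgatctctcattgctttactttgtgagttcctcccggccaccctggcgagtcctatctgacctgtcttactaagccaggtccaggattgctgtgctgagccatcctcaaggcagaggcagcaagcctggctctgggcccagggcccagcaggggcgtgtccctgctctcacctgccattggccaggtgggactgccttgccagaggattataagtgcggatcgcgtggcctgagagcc

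GTTAAT was found in the promoter of *Fabp1*, TTGCNNAA in those of *Fabp1* and *Es1*, and TATAAA in those of *Fabp1* and *Akr1c6*. None of these runs was found in this window of *Gnmt*. In *Fabp1* the TATAAA match began 30 bases before the start, and in *Akr1c6* TATAAA began 164 bases before it. Among the 22 members with a promoter entry, TTGCNNAA was found in 2 of the 6 that were called lower and in 5 of the other 16, against 9.56% of all 32851 promoters of this length. TATAAA was found in 2 of the 6 and in 4 of the other 16, against 12.4% of all promoters. GTTAAT was found in 1 of the 6 and in 3 of the other 16, against 6.43% of all promoters. A search for CAAAGTCCA (HNF4) on both strands found it in 0 of the 22, and 0.384% of all promoters held it. The letter runs do not overlap within the promoters shown. A match is a run of letters and was not tested as a binding site.

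The lowest ratios were those of 3 genes outside amino acid and sugar metabolism proper. *Fabp1*, the liver fatty acid-binding protein, which is also made in small intestine, had a green signal of 516 to 733 in the pool (probe at chr6:71134491-71134550, mm8) and a median red signal of 30.0. Its log2 ratio was -3.57, -4.47, -4.15 and -4.45 in mice 1 to 4 and -1.61, -4.96, -4.92 and -3.46 in mice 5 to 8. The mean was -3.95 ± 1.09 (SD, n = 8, as for all means that follow). All 8 mice were lower than the pool, and mouse 5 stood apart with a red signal of 179. That was the only array on which red was not a stand-in value, so in the other 7 mice the ratio was set by the red background, and the 1 measured ratio was -1.61.

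*Es1*, a carboxylesterase that liver makes and secretes into the blood in rodents, had a green signal of 314 to 498 (chr8:95988194-95988253, mm8). Its ratio was -2.62, -3.27, -3.30 and -3.09 in mice 1 to 4 and -3.51, -4.55, -3.35 and -2.33 in mice 5 to 8, with a mean of -3.25 ± 0.66. The 3 ratios made with a measured red signal averaged -3.07, close to the mean of all 8. A second, dimmer probe of *Es1* with a median green signal of 85.4 had a mean of -1.08 ± 0.63. It was also lower in 8 of 8 mice but did not meet the call.

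*Akr1c6*, a hydroxysteroid dehydrogenase of the aldo-keto reductase family, had a green signal of 248 to 345 (chr13:4456428-4456487, mm8). Its ratio was -2.07, -3.17, -3.25 and -3.45 in mice 1 to 4 and -2.51, -1.82, -3.33 and -1.96 in mice 5 to 8, with a mean of -2.70 ± 0.68. Of the 8 red signals, 5 were measured and their ratios averaged -2.47. All mice lay below the pool and the slides overlapped. For *Es1* and *Akr1c6* the ratios of the measured arrays alone averaged near the overall mean, whereas for *Fabp1* they came down to 1 array. None of these measured red signals was well above background. For *Es1* they were 39.6 to 59.2, among stand-ins of 21.2 to 62.2, and for *Akr1c6* 28.5 to 97.5, beside stand-ins of 27.9 to 43.5. Nothing about the size of the difference is read from this nearness.

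The 4 other lower genes were weak in the pool as well. *Hpd*, the dioxygenase of the second step of tyrosine degradation, had a green signal of 62.8 to 94.9 (chr5:123432846-123434969, mm8) and ratios from -2.36 through a median of -1.55 to -0.67 (mean -1.49 ± 0.55). *Agxt*, the peroxisomal enzyme that turns glyoxylate into glycine, had a green signal of 108 to 127 (chr1:94975730-94975788, mm8) and ratios from -2.12 through -1.39 to -0.26 (mean -1.29 ± 0.67). *Bhmt*, which remethylates homocysteine with betaine, had a green signal of 71.1 to 90.4 (chr13:94720852-94720911, mm8) and ratios from -1.81 through -1.42 to -0.38 (mean -1.28 ± 0.50). These genes were lower in every mouse, but red was a stand-in value on 6 arrays for *Hpd*, 8 for *Agxt* and 7 for *Bhmt*. *Dpys*, the dihydropyrimidinase of pyrimidine breakdown, had a green signal of 61.5 to 99.4 (chr15:39613077-39613136, mm8) and ratios from -1.78 through -1.21 to -0.14 (mean -1.09 ± 0.55), with 5 stand-in values. Its second probe was well above background in neither dye on any array and had a mean of 0.30 ± 0.58. Under the alternative settings *Agxt* met the call in 8 of 20 and *Dpys* in 6 of 21.

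The slides differed for some of these weak genes. *Agxt* averaged -1.86 on slide 1 and -0.72 on slide 2, and its 4 ratios on slide 1 were all below its 4 on slide 2. *Bhmt* averaged -1.61 and -0.95. Since all 8 of the red values of *Agxt* were stand-ins, the stand-in level bears on it directly. The median red stand-in value over all probes ranged from 20.1 to 24.5 between the arrays of slide 1, and from 28.9 to 40.9 between those of slide 2. *Hpd* (-1.43 and -1.55) and *Dpys* (-0.89 and -1.28) were lower on slide 2. *Fabp1*, *Es1* and *Akr1c6* had means at or below -2.41 on both slides. The median ratio over the 7 lower genes was between -2.36 and -1.10 in each of the 8 mice.

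**Figure D2:**
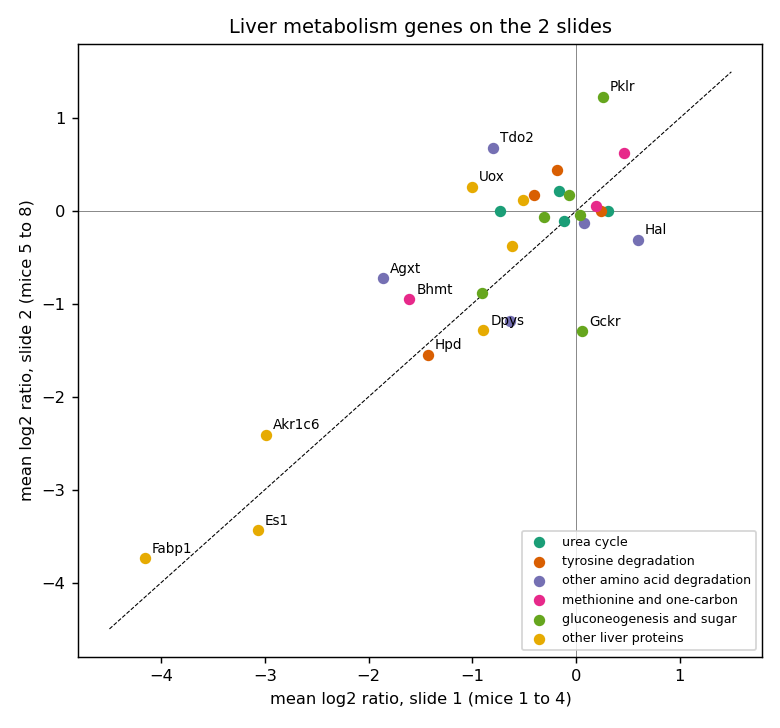
Mean log2 ratio on slide 1 (mice 1 to 4, horizontal) against slide 2 (mice 5 to 8, vertical) for 29 genes colored by role, with the line of equal values dashed. *Fabp1*, *Es1* and *Akr1c6* are at the lower left on both slides, and *Tdo2*, *Uox*, *Gckr*, *Hal*, *Pklr* and *Agxt* lie far from the line.

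By role, the urea cycle had 0 of 5 members called (1 lower and 0 higher at an unadjusted p under 0.05). *Ass1* and *Asl*, which build and split argininosuccinate, were measured in both dyes. *Ass1* had ratios from -0.85 through a median of -0.05 to 0.41 (mean -0.11 ± 0.42). *Asl* ranged from -0.24 through -0.05 to 0.48 (mean 0.03 ± 0.30). Both were above 0 in 4 mice and below in 4. *Cps1*, which makes carbamoyl phosphate and is among the most abundant mitochondrial proteins of hepatocytes, had a median green signal of 46.0 and red stand-in values on all 8 arrays. Its ratio was -0.89 to -0.42 on slide 1 and 0 in all 4 mice of slide 2. It is the gene counted above at an unadjusted p under 0.05 in limma, and it did not meet the call. *Otc*, the next enzyme of the cycle, had green well above background on 1 array, and 6 of its 8 ratios were 0. The probe of *Otc* had a median green signal of 13.9 and a mean ratio of 0.16 ± 0.31. A brighter *Otc* probe (28.5), which did not pass the filter on red signal, had a mean of -0.55 ± 0.31 and was lower in 7 of 8 mice, so that the direction for *Otc* depended on the probe.

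In tyrosine degradation, 1 of 4 members was called, *Hpd*. *Tat*, the aminotransferase of the first step, ranged from -0.27 through 0.02 to 0.79 (mean 0.13 ± 0.39), with all mice of slide 1 below 0 and all mice of slide 2 above. *Fah*, the hydrolase of the last step, ranged from -0.62 through -0.12 to 0.28 (mean -0.11 ± 0.34). Both had red well above background on all 8 arrays. *Hgd*, between *Hpd* and *Fah* in the pathway, was well above background in neither dye on any array, and 7 of its 8 ratios were 0.

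Among the other enzymes of amino acid degradation, 1 of 5 was called, *Agxt*. *Aass*, the first enzyme of lysine degradation, was bright in both dyes (median red 5635, median green 5712), with ratios from -0.54 through 0.01 to 0.24 (mean -0.02 ± 0.25). *Hal*, the histidine ammonia-lyase, ranged from -2.03 through 0.40 to 1.39 (mean 0.14 ± 1.01), the lowest value being the only stand-in. *Tdo2*, the liver dioxygenase that opens the tryptophan ring, ranged from -1.07 through -0.37 to 1.61 (mean -0.06 ± 0.99). It was below 0 in all 4 mice of slide 1 and above 0 in 3 of 4 on slide 2. *Sds*, the serine dehydratase, ranged from -2.07 through -0.83 to 0.22 (mean -0.91 ± 0.77) and was lower in 7 of 8 mice, with red stand-in values on 5 arrays. With median-centred signals its mean was 0.16.

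In methionine and one-carbon metabolism, 1 of 3 members was called, *Bhmt*, and the others were bright in both dyes. *Gnmt*, which uses up S-adenosylmethionine by methylating glycine, had a median red signal of 14354 and a median green signal of 13463. Its ratios ran from -0.07 through 0.01 to 0.48 (mean 0.13 ± 0.22). *Mat1a*, which makes S-adenosylmethionine, had ratios from 0.10 through 0.56 to 1.21 (mean 0.55 ± 0.35) and was above the pool in 8 of 8 mice, although it did not meet the call. With median-centred signals, and likewise with normexp and loess, its mean was -0.10. These genes were read at red signals far above the background in every mouse.

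In gluconeogenesis and sugar handling, 0 of 6 members with a probe were called (2 lower and 1 higher at an unadjusted p under 0.05). *Khk*, the ketohexokinase that starts fructose breakdown, ranged from -0.16 through 0.02 to 0.31 (mean 0.06 ± 0.17), the second smallest spread of the set after *Gys2*. *Fbp1*, the fructose-1,6-bisphosphatase of gluconeogenesis, ranged from -0.27 through -0.08 to 0.56 (mean -0.00 ± 0.26). *G6pc*, whose product releases free glucose in the last step, ranged from -1.62 through -1.04 to 0.81 (mean -0.90 ± 0.79). It was lower in 7 of 8 mice, at a median green signal of 82.4 and with red well above background on 0 arrays. Without mouse 2 its mean was -1.14 and it met the call (limma, adjusted p = 0.00676). *Pklr*, the liver and red cell pyruvate kinase, ranged from 0.20 through 0.31 to 1.70 (mean 0.75 ± 0.67) and was above the pool in 8 of 8 mice. Its mean was 0.26 on slide 1 and 1.23 on slide 2, where its green signal, from the same pool, also reached 516. *Gckr*, the regulatory protein of glucokinase, ranged from -2.69 through -0.31 to 0.57 (mean -0.62 ± 1.01), with slide means of 0.06 and -1.29. *Gys2*, the liver glycogen synthase, had a median green signal of 28.6 and red stand-in values on all 8 arrays, and its mean of -0.19 ± 0.17 was read at background.

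The group of other liver proteins held 4 of the 7 lower genes, and all 7 of its members had a mean below 0. Of the members not yet described, *Adh1*, the main liver alcohol dehydrogenase, was bright (median green 2652) and ranged from -0.60 through -0.24 to 0.53 (mean -0.19 ± 0.39). *Uox*, the urate oxidase, ranged from -1.26 through -0.44 to 1.33 (mean -0.37 ± 0.85), with red stand-in values on 6 arrays. *Ttpa*, the vitamin E transfer protein, ranged from -1.61 through -0.66 to 0.54 (mean -0.50 ± 0.84). All of them had mice on both sides of 0. Of the 9 members with more than 1 probe, the second probes of *Ass1* (-0.21) and *Ttpa* (-0.66) and the next brightest of *Adh1* (-0.22) stayed within 1 SD of the first. The second probe of *Khk* did not. Its mean was -0.16 ± 0.25 with 6 of 8 mice lower, so that the sign for *Khk* depended on the probe. The remaining probes of *Otc*, *Tdo2*, *Uox* and *Adh1* had red well above background on 0 arrays.

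**Figure D3:**
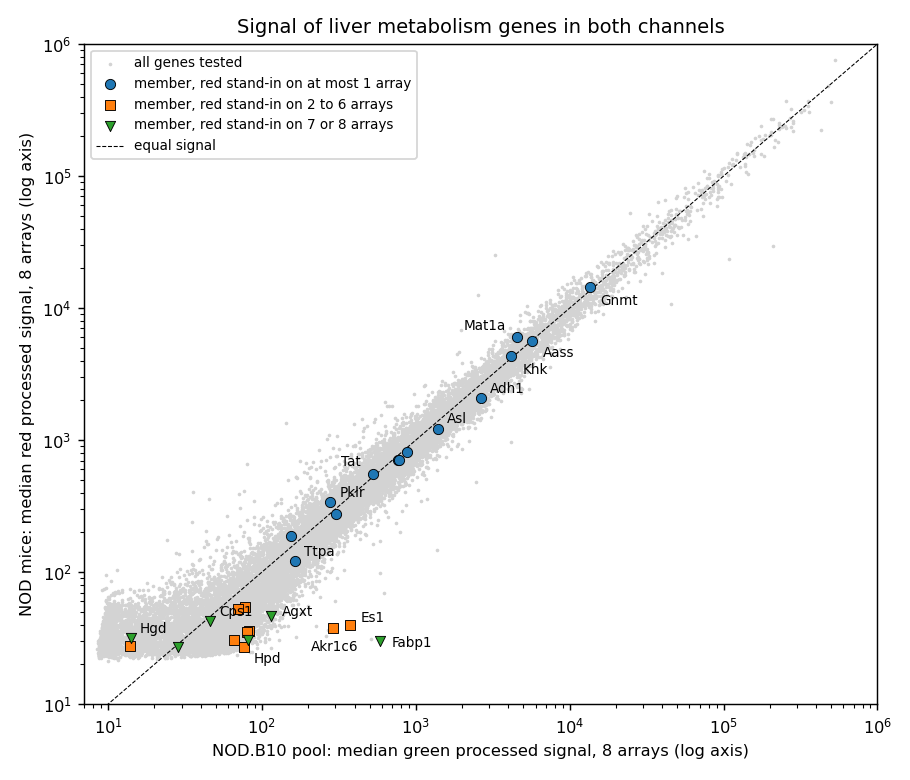
Median red signal of the 8 NOD mice (vertical) against the median green signal of the NOD.B10 pool (horizontal), both on log axes, for 29 members over all 18505 genes tested (grey). Marker shape gives the number of arrays with a red stand-in value. Members above a green signal of about 600 lie near the line of equal signal, while *Fabp1*, *Es1* and *Akr1c6* lie at the red background far to the right of it.

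The 7 lower members lay in separate ranges of pool brightness, with no called member among the brightest. Members and all genes were split by median green signal into ranges set after the values had been seen. Below 50, 0 of 5 members were called lower, and 0.0464% of all genes in that range. Between 50 and 120, 4 of 8 members were called lower, and 5.28% of the 2898 genes. Between 120 and 250 it was 0 of 2 members and 1.69% of genes, and between 250 and 600 it was 3 of 6 members and 0.812% of genes. At 600 or more, 0 of 9 members were called lower, and 0.318% of genes. The median of all genes was itself -0.40 in the range of 50 to 120, in which *Hpd*, *Agxt*, *Bhmt* and *Dpys* lie, and -0.12 in the range of 250 to 600, in which *Fabp1*, *Es1* and *Akr1c6* lie. Among all genes with green well above background on 8 arrays and red on none, as in 10 members, 7.22% were called lower. Where red was well above background on at least 4 arrays, a condition on the NOD signal itself, 0.21% were.

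**Figure D4:**
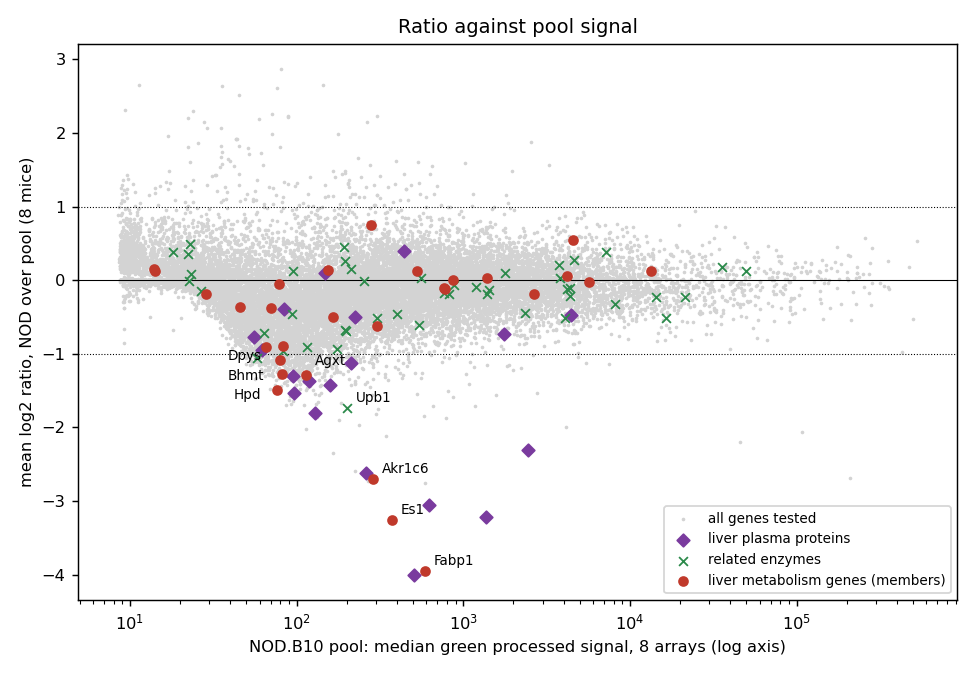
Mean log2 ratio of 8 mice (vertical) against the median green signal of the pool (horizontal, log axis) for members (red circles), related enzymes (green crosses) and liver plasma proteins (purple diamonds) over all genes tested (grey). Dotted lines mark 2-fold. *Fabp1*, *Es1* and *Akr1c6* stand with plasma proteins between -4.00 and -2.31, and members above a green signal of 600 stand within 1 of 0.

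Genes of the same pathways that are not members, called related enzymes although a few are transporters, were taken as a second list. It held 52 genes, of which 47 passed the signal filter. Of these, 1 was called lower and 0 higher (17 lower and 4 higher at an unadjusted p under 0.05 in limma, where 25% of all genes were lower and 10.8% higher), and their median log2 ratio was -0.15. The called gene was *Upb1*, which follows *Dpys* in pyrimidine breakdown. It had a green signal with a median of 200.1 and ratios from -2.56 through -1.90 to -0.78, with a mean of -1.73 ± 0.59 (limma, adjusted p = 0.00195) and lower values in 8 of 8 mice. Red rose well above background on none of its arrays, and its 5 measured ratios averaged -1.46.

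The next lowest related enzymes were *Adh4*, an alcohol dehydrogenase (-1.06 ± 0.83, adjusted p = 0.0354), *Pfkfb1*, the liver form of the enzyme that sets fructose 2,6-bisphosphate (-0.97 ± 0.64, 0.0197), and *Dpyd*, the first enzyme of pyrimidine breakdown (-0.94 ± 0.69, 0.029). *Pemt*, which methylates phosphatidylethanolamine (-0.91 ± 0.62, adjusted p = 0.0228), came next by mean ratio (limma). None of these passed the threshold. The 5 highest were *Aadat* (0.49), *Haao* (0.45), *Qdpr* (0.38), *Hao1* (0.38) and *Agxt2* (0.36), none of them called. *Qdpr*, which recycles the tetrahydrobiopterin used by phenylalanine hydroxylase, was higher in 8 of 8 mice (SD 0.15, limma, adjusted p = 0.0039) at less than 2-fold, whereas *Aadat*, *Hao1* and *Agxt2* had green well above background on 0 arrays. By role, the call was in the group of other liver proteins, and the urea cycle (4 genes), tyrosine (4), other amino acid (14), methionine (7) and sugar (11) groups had 0 called.

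Markers of liver and of other tissues were read beside these genes. Of 19 liver plasma protein genes, 10 were called lower and 0 higher (median log2 ratio -1.30). Their summed red signal was 5713 to 7815 in the NOD mice, against a summed green signal of 11069 to 15736 in the pool. Among them *Alb*, albumin, had a mean of -2.31 ± 0.60 and red well above background on 5 arrays. *Fgg*, a fibrinogen chain, had a mean of -4.00 ± 0.57, each of its 8 red signals being a stand-in. Of 9 hepatocyte transcription factors and transporters that passed the filter, 1 was called lower, the bile salt pump gene *Abcb11*, and the hepatocyte bile acid transporter gene *Slc10a1* was well above background in neither dye on any array. Other liver genes went the other way or stayed near 0. *Hnf4a*, a transcription factor also made in pancreas, had a mean of 0.73 ± 0.29, higher in 8 of 8 mice (limma, adjusted p = 0.00327) at less than 2-fold. *Fetub* (0.40), *Ttr* (0.10) and *Foxa3* (0.09) had means above 0 and were not called. The part of liver RNA in the member ratios was not tested.

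Because *Fabp1* and several other members are also made in intestine or kidney, those lists were read as well. Of 12 small intestine genes that passed, 2 were called lower (*Vil1* and *Tff3*) and 0 higher, with 4 lower and 0 higher at an unadjusted p under 0.05 in limma (25% and 10.8% of all genes, here and for the lists that follow). The median of the 12 was -0.26, and 9 had a mean below 0. *Anpep* (-0.24), *Sis* (0.18) and *Rbp2* (0.00122) had green well above background on 8 arrays and red on 8, 6 and 4. *Alpi* (-0.76, lower in 8 of 8 mice), *Slc5a1* (-0.58) and *Fabp2* (-0.29) had green so on 8 arrays and red on 0, and were not called. The intestinal genes *Cdx1*, *Cdx2* and *Lct* were well above background in neither dye on any array. Of 8 kidney genes, 0 were called (1 lower and 1 higher at an unadjusted p under 0.05). Of 10 adipocyte genes, 0 were called (5 lower at an unadjusted p under 0.05), although all 10 had a mean below 0 (median -0.79). Of 11 acinar genes, which mark the tissue as pancreas, 0 were called (4 higher at an unadjusted p under 0.05, median 0.09) and all had red well above background on 8 arrays. Of 9 T cell genes, 0 were called, with 6 higher at an unadjusted p under 0.05 in limma and a median of 0.61. The part of these tissues in the member ratios was not tested.

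Normexp background correction with loess, in place of the authors' ratios, added an offset of 50 to both dyes, which draws the ratios of weak signals toward 0. With it, 0 of 30 members were called by limma (10 lower and 2 higher at an unadjusted p under 0.05), and *Fabp1*, *Es1* and *Akr1c6* had means of -0.81, -0.47 and -0.35. With red stand-in values left out, *Es1* (-3.07) and *Akr1c6* (-2.47) were called and *Fabp1* (-1.61, 1 array), *Hpd* (-1.67, 2 arrays), *Bhmt* (-1.31, 1 array) and *Dpys* (-0.73, 3 arrays) were not, while *Agxt* had no array left.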

How the data were processed

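Pancreas RNA of 8 NOD mice was measured on 8 two-color Agilent arrays against 1 pool of 8 NOD.B10 mice. The authors processed the scans with Agilent Feature Extraction (version 10.7.3.1). The deposited values per spot are a log10 ratio (red to green), the intensity in each dye before and after background subtraction and dye normalization, and flags for stand-in, irregular and well above background signals. Probe positions are those of the files (mm8). Promoters come from RefSeq (GRCm38.p6), matched by symbol, and no position was converted.

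Ratios were turned from log10 to log2 and averaged over the spots of a probe. A probe was kept if it had a symbol and if red processed signal reached 25 on 4 of 8 arrays (28105 of 34850). Kept probes were tested together against 0 by limma's moderated test (limma 3.58.1 in R 4.3.3, with data.table version 1.17.8) with Benjamini-Hochberg adjustment, and called at 2-fold and an adjusted p under 0.01. P-values measure the spread between NOD arrays only. In simulated data for this comparison (200 of 28105 probes changed 3-fold), 149 (74.5%) were recovered with 0 false calls. The simulated ratios were normal noise around 0 at the spread of each probe. They held no stand-in values, exact zeros or dye effect, so the 0 false calls do not carry over to ratios read at background. Other work used Python 3.11.15, numpy 2.4.6, pandas 2.3.3 and matplotlib 3.10.9.

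Members, related enzymes, marker lists and tests were chosen with earlier results of these data known. Members are all counted, 1 member and 1 related enzyme are not reported here, and values are given for those called, those with green well above background on every array and those with red so on at least 4, and for other members, such as *Cps1*, *Otc* and *Gys2*, named beyond that rule after their values were seen. Related enzymes are named if called, or if among the 5 furthest from 0 in each direction. Marker genes were named after their values were seen. Alternatives were other statistics, filters, background corrections, weights, a slide term, other probes, other thresholds and each mouse left out. The number of arrays limits the precision.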

Additional observations from a re-analysis of the deposited data

Results flagged for a closer look

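In 6 of the 39 sets of 8 ratios examined (29 members and 10 related enzymes), the highest or lowest mouse lay further from the others than Dixon's 95% critical value for 8 values allows. Chance alone flags about 1 in 20 sets of measured values. That rate does not hold for sets with stand-in values or with ratios of exactly 0, which are not readings. Numbers in parentheses are the gap to the nearest mouse divided by the whole range. For *Fabp1* (0.553) it was mouse 5, at -1.61 with the next at -3.46, and without it the mean was -4.28. Mouse 5 had the only measured red signal of *Fabp1*, so the flag sets 1 reading against 7 ratios made with stand-in values. For *Fbp1* (0.537) it was mouse 3, at 0.56. For *Hgd* (1), *Agxt2* (1) and *Hao1* (1) a single mouse (mouse 1, 6 and 7) differed from 7 ratios of exactly 0, so that the value of 1 was fixed by the zeros and says nothing of that mouse. For *Aadat* (0.673) mouse 6 stood at 2.77 with 5 ratios of 0.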

How the results depend on the processing

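No paired analysis was possible because the arrays form 1 group and the numbers of the mice pair nothing. The main result was 484 probes called (82.0% lower), 7 of 30 members, a member median of -0.15 and 1 of 47 related enzymes. The plain statistic and no signal filter each called 5 members, without *Agxt* and *Dpys*. The plain statistic called 308 probes, an adjusted p of 0.05 called 919 and a 1.5-fold change 1109, with 2 related enzymes at an adjusted p of 0.05. Red well above background on at least 4 arrays left 133 probes (31.6% lower), 0 of 13 members (0 lower and 2 higher at an unadjusted p under 0.05), a member median of 0.025 and 0 related enzymes (8 and 3). Green well above background, with no red filter, gave 759 probes. The ratio of processed signals gave 4160 probes (16.6% lower), among them 7 members lower and 1 higher, and 4 related enzymes. With red stand-in values set to missing, 332 probes (28.6% lower) and 2 members were called. Median-centred signals moved the median of all probes from -0.09 to 0.07 and gave 7087 probes (18.4% lower), 4 members lower and 2 higher, and 11 related enzymes. Normexp (offset 50) with loess gave 87 probes (29.9% lower) and 0 members (10 and 2 at an unadjusted p under 0.05), and *Agxt2* turned to -0.022. The related enzyme called there was *Aldh1l1* in place of *Upb1*. Leaving out one mouse gave 243 to 336 probes, 4 to 6 members (with *G6pc* without mouse 2), and 1 or 2 related enzymes (2 without mouse 7). Without mouse 1, 2, 3, 4, 6 or 8 the probe count fell by over 1.5 times, to 298, 279, 243, 250, 301 and 301. Added after the values were seen, the 5 arrays with a good grid gave 39 probes, 2 members (*Fabp1* and *Es1*), a median of -0.36 and 0 related enzymes (17 lower and 3 higher at an unadjusted p under 0.05). Slide 1 alone gave 0 probes by limma (6048 lower and 3251 higher at an unadjusted p under 0.05), 0 members (13 and 1), a median of -0.43 and 0 related enzymes (15 and 2), and slide 2 alone 3 probes, 0 members (8 and 3) and 0 related enzymes (9 and 4). With the median over the probes of a gene, *Dpys* (-0.39) was no longer called. Apart from the changes shown by construction (fewer arrays or probes), the cause was not tested. No called member changed sign under any alternative, whereas members not called did. Among these, median-centred signals turned *Sds* (0.16) and *Mat1a* (-0.10), normexp with loess turned *Mat1a* (-0.10), and no signal filter turned *Otc* (-0.55). Red signal at background limits the size of the lower ratios.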

Other observations

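The 30 members differed in how evenly they were read across mice. In mice 5, 6 and 7, whose arrays lacked a good grid, 12, 14 and 15 of the 30 ratios were below 0, and 5 in each were exactly 0. In mice 1 to 4, 20 to 22 were below 0 and 1 or 2 were 0. Mouse 8, also on slide 2, had 18 below 0 and 4 at 0.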
